A study of Bos taurus with 6 samples.

Results

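Ketone bodies are made in liver mitochondria from acetyl-CoA, which comes mainly from fatty acid oxidation. ACAT1 (acetyl-CoA acetyltransferase) joins acetyl-CoA units to acetoacetyl-CoA, further mitochondrial steps turn this into acetoacetate, and BDH1 reduces acetoacetate to 3-hydroxybutyrate. Monocarboxylate transporters such as SLC16A1 (MCT1) carry both acids across the plasma membrane together with a proton, and in tissues that burn ketone bodies OXCT1 attaches CoA to acetoacetate so that ACAT1 can split it again. In dairy cows, ketone body output rises when the liver takes up much fat around calving.

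The 5 genes described here are ACAT1, BDH1, BDH2, OXCT1 and SLC16A1, taken by gene name from the 36577 loci of the count table. Each name had 1 row, and all 5 passed the filter on low counts that left 15576 genes for testing. Their identifiers are ENSBTAG00000012885 (ACAT1), ENSBTAG00000000448 (BDH1), ENSBTAG00000002526 (BDH2), ENSBTAG00000033186 (OXCT1) and ENSBTAG00000015107 (SLC16A1). The genome build behind the files is not given in the sources used here, so no positions are reported.

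The cells were wild-type primary bovine hepatocytes from fasted, healthy female calves aged 1 day, all exposed to 400 µmol/L of the saturated fatty acid palmitate (palmitic acid, PA). The PA + 3-IAA group (n = 3 libraries) also received 200 µmol/L indole-3-acetic acid (3-IAA), an indole made from tryptophan, and the PA + DMSO group (n = 3) received the solvent DMSO. The labels do not say which solvent the 3-IAA was given in. All cells had been plated with serum, insulin and dexamethasone. No PA-free cells were among the samples, and the labels do not say whether replicates are separate calves or separate cultures, so the p-values measure only the spread between these libraries. Library totals ran between 16580723 and 22562450 expected counts. A principal component analysis of the log2 CPM values put the PA + 3-IAA libraries between 32.1 and 32.8 on its first axis, PA + DMSO replicates 1 and 2 at -42.6 and -42.3, and PA + DMSO replicate 3 away from both at -12.7. Several of the results that it moved are also given without it.

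With 3-IAA, OXCT1 and BDH2 were higher and SLC16A1 was lower, each by less than 2-fold, while ACAT1 and BDH1 did not pass the test. OXCT1 was 1.46-fold and BDH2 1.38-fold higher, and SLC16A1 was 1.40-fold lower, in PA + 3-IAA cells. The test was edgeR's quasi-likelihood test over all tested genes, with a Benjamini-Hochberg adjusted p under 0.05. By that rule 25.4% of all tested genes were called higher and 25.8% lower, 51.2% together, so 3 called genes of 5 is close to the share among all genes. The median absolute log2 fold change over all tested genes was 0.32. That of the 3 called genes lay between 0.46 and 0.54, while BDH1 (0.21) and ACAT1 (0.02) were below the median. The call itself favours larger changes, so these values do not set the called genes apart. The signed median over all tested genes was near 0, at 0.00. In bulk RNA, fewer cells of a type and less RNA per cell cannot be told apart.

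**Figure D1:**
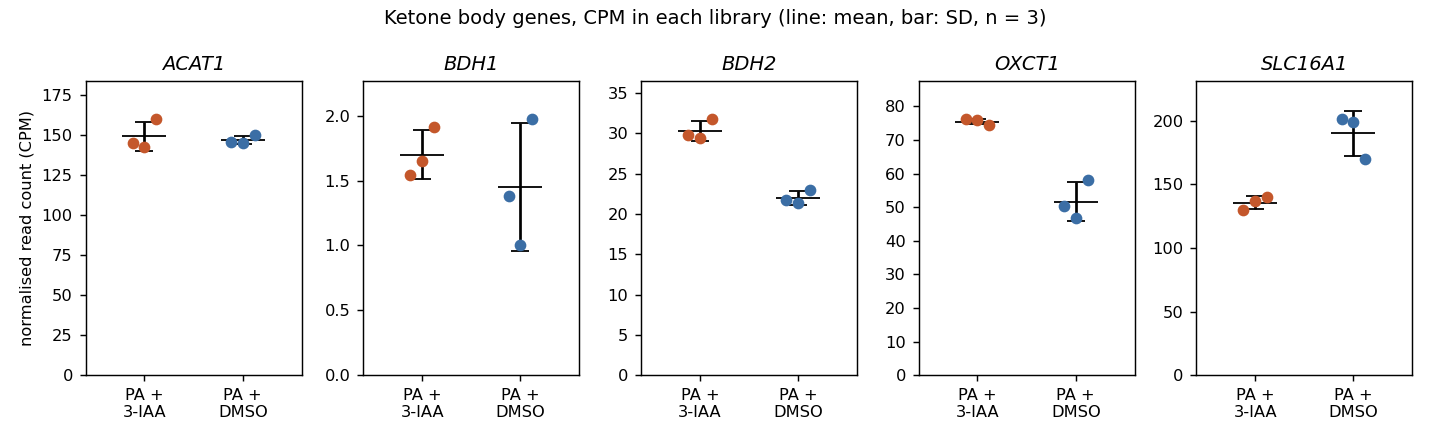
Normalised read count (CPM, linear axis from 0, a separate scale for each gene) of the 5 genes in each library, PA + 3-IAA (orange) left of PA + DMSO (blue); the horizontal line is the mean and the bar the SD over 3 libraries. BDH2, OXCT1 and SLC16A1 have groups that do not overlap, as have 62.5% of all tested genes, while the groups of ACAT1 and BDH1 overlap.

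ACAT1, the thiolase at the entry of ketone body synthesis, had 145, 143 and 160 CPM (counts scaled to a common library size by edgeR's trimmed mean of M values) in PA + 3-IAA replicates 1 to 3, against 146, 145 and 150 CPM in PA + DMSO replicates 1 to 3. The groups overlapped, and PA + 3-IAA replicate 3 was the highest library. The log2 fold change was 0.02 (SE 0.06, edgeR adjusted p = 0.78), with a 95% interval between -0.12 and 0.16. ACAT1 rested on 2319 to 3440 counts per library and its interval includes small changes in either direction.

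BDH1, the mitochondrial dehydrogenase that forms 3-hydroxybutyrate, was barely detected. It had 36, 36 and 41 counts in PA + 3-IAA replicates 1 to 3, against 28, 16 and 39 counts in PA + DMSO replicates 1 to 3. In CPM these were 1.54, 1.65 and 1.91 in PA + 3-IAA, against 1.38, 1.00 and 1.97 in PA + DMSO. PA + DMSO replicate 3 was above every other library and replicate 2 below every other one, so the PA + DMSO libraries spanned the whole PA + 3-IAA range. The log2 fold change was 0.21 (SE 0.26, edgeR adjusted p = 0.542), with a 95% interval between -0.38 and 0.79. At this depth counting alone leaves wide limits: 16 counts have an exact 95% Poisson interval of 9.15 to 26.0 and 41 counts one of 29.4 to 55.6. Those limits cover counting error only. Without PA + DMSO replicate 3 the log2 fold change of BDH1 was 0.49 (edgeR adjusted p = 0.145), and without PA + DMSO replicate 2 it was 0.02 (edgeR adjusted p = 0.964).

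BDH2, a cytosolic member of the same short-chain dehydrogenase family, was higher with 3-IAA. In mice and humans it has been described both as a 3-hydroxybutyrate dehydrogenase and as an enzyme of siderophore synthesis and iron handling. It had 29.8, 29.4 and 31.7 CPM in PA + 3-IAA replicates 1 to 3, against 21.7, 21.3 and 22.9 CPM in PA + DMSO replicates 1 to 3. All 3 PA + 3-IAA libraries were above all 3 PA + DMSO libraries, as 62.5% of tested genes had groups without overlap in either direction. The log2 fold change was 0.46 (SE 0.07, edgeR adjusted p = 0.000585). On the log2 CPM scale the PA + 3-IAA mean lay 0.49 above the mean of PA + DMSO replicates 1 and 2, and PA + DMSO replicate 3 lay 0.09 above it. BDH2 thus separated the groups with that library near its own group.

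OXCT1, the mitochondrial transferase by which extrahepatic tissues use acetoacetate, had the largest fold change of the 5 genes. In rodents and humans adult hepatocytes express very little of it, which keeps the liver from burning its own ketone bodies. In these cultures it had 76.1, 75.8 and 74.5 CPM in PA + 3-IAA replicates 1 to 3, against 50.3, 46.8 and 58.0 CPM in PA + DMSO replicates 1 to 3. The PA + 3-IAA libraries lay close together and above every PA + DMSO library. The log2 fold change was 0.54 (SE 0.08, edgeR adjusted p = 0.000444). The PA + 3-IAA mean of OXCT1 lay 0.64 above the mean of PA + DMSO replicates 1 and 2 in log2 CPM, and PA + DMSO replicate 3 lay 0.26 above it, on the way to the PA + 3-IAA libraries. Without that library the log2 fold change was 0.63 (edgeR adjusted p = 1.82e-11).

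SLC16A1, the proton-coupled transporter of lactate, pyruvate and ketone bodies, was the member that fell. It had 130, 137 and 140 CPM in PA + 3-IAA replicates 1 to 3, against 201, 199 and 170 CPM in PA + DMSO replicates 1 to 3. Every PA + 3-IAA library was below every PA + DMSO library, and PA + DMSO replicate 3 was the lowest of its group. The log2 fold change was -0.48 (SE 0.07, edgeR adjusted p = 0.000677), and -0.56 without PA + DMSO replicate 3 (edgeR adjusted p = 5.74e-12). SLC16A1 counts were fractional in all libraries, as estimated counts are when a read matches several loci, so its exact value is uncertain. An unnamed locus, ENSBTAG00000049434, has the same protein annotation in the files and held 28, 19 and 18.01 counts in PA + 3-IAA replicates 1 to 3, against 20, 14 and 19 in PA + DMSO replicates 1 to 3. SLC16A1 itself held 2989 to 4073 counts per library.

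The authors' deposited table gives log2 fold changes of 0.54 for OXCT1, 0.46 for BDH2, -0.49 for SLC16A1, 0.21 for BDH1 and 0.02 for ACAT1. In the authors' deposited table all 5 genes are marked as stable; the smallest absolute log2 fold change of a gene marked up or down there was 0.59, and its adjusted p-values were 1.19e-07 for OXCT1, 1.97e-05 for BDH2 and 9.91e-07 for SLC16A1.

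Levels were compared between genes in TPM (an abundance per length, scaled to a common total). ACAT1 was the highest, at 364 ± 27.2 TPM in PA + 3-IAA cells and 354 ± 11.9 TPM in PA + DMSO cells (SD, n = 3 each), and ranked between 318 and 379 among the 15576 tested genes. SLC16A1 had 52.9 ± 1.46 TPM in PA + 3-IAA and 74.0 ± 7.22 TPM in PA + DMSO cells. OXCT1 had 41.1 ± 1.35 TPM in PA + 3-IAA and 26.6 ± 2.89 TPM in PA + DMSO cells. The order then ran through BDH2, at 38.2 ± 1.81 TPM in PA + 3-IAA and 27.9 ± 0.74 TPM in PA + DMSO cells, to BDH1, at 1.69 ± 0.146 TPM in PA + 3-IAA and 1.43 ± 0.591 TPM in PA + DMSO cells. OXCT1 was above BDH2 in the 3 PA + 3-IAA libraries and in PA + DMSO replicate 3, and below it in PA + DMSO replicates 1 and 2, so those neighbours in the order did not differ beyond their spread in PA + DMSO cells on the TPM scale.

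The TPM scale depends on the length used. The ratio of counts to TPM implied a length of 0.365 to 0.386 times the deposited one (1754 bases) for ACAT1, and of 1.84 to 1.94 times the deposited one (1619 bases) for OXCT1, after scaling to the median over 14201 loci with at least 10 counts in each library. With counts divided by the deposited length instead, ACAT1 was 1.87- to 2.06-fold above SLC16A1 in PA + 3-IAA and 1.31- to 1.58-fold above it in PA + DMSO libraries, and OXCT1 stood above SLC16A1 in all 3 PA + 3-IAA libraries and below it in all 3 PA + DMSO libraries. On that scale OXCT1 was also 1.94- to 2.13-fold above BDH2 in PA + 3-IAA and 1.82- to 2.09-fold above it in PA + DMSO libraries, so the order of this pair depends on the length used. ACAT1 kept the top place and BDH1 the bottom place in all 6 libraries on both scales.

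**Figure D2:**
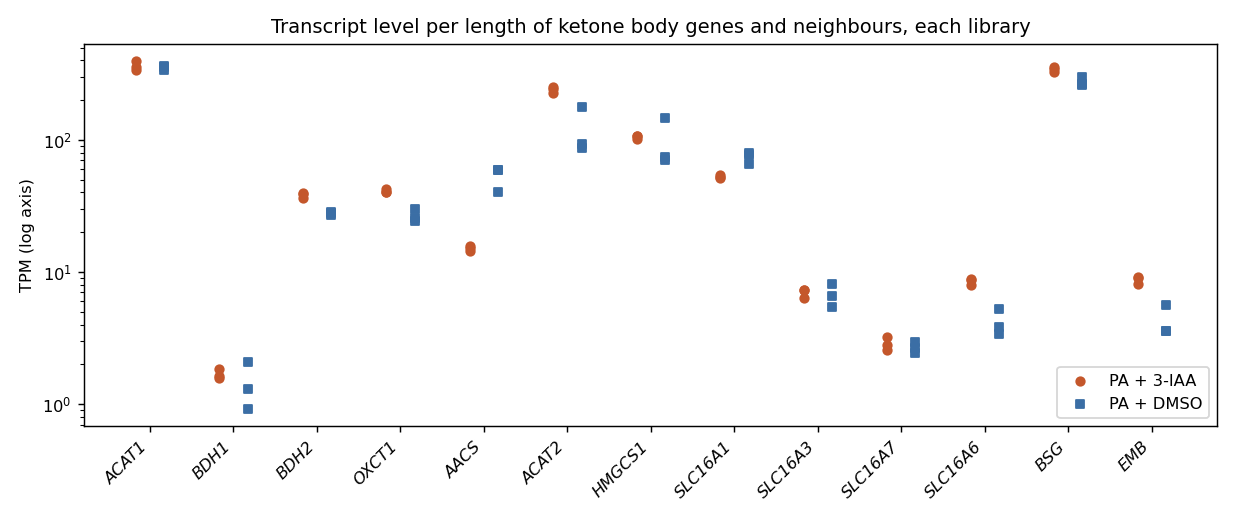
TPM (log axis) of the 5 genes and of related enzymes and transporters in each library, PA + 3-IAA (orange circles) left of PA + DMSO (blue squares). ACAT1 lies at 340 to 393 TPM, whereas BDH1 lies between 0.92 and 2.08 TPM in every library.

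OXCT1 exceeded BDH1 on the TPM scale by 26.0-, 25.5- and 21.9-fold in PA + 3-IAA replicates 1 to 3, and by 19.6-, 26.5- and 14.4-fold in PA + DMSO replicates 1 to 3. The mean log2 ratio of BDH1 to OXCT1 was -4.61 ± 0.136 in PA + 3-IAA and -4.29 ± 0.443 in PA + DMSO cells (SD, n = 3 each). That difference of -0.32 was within the spread of the PA + DMSO libraries (exact two-sided permutation test over libraries, p = 0.4, where 0.1 is the smallest that 3 against 3 can give). By counts over the deposited length OXCT1 exceeded BDH1 by 43.4- to 55.2-fold in PA + 3-IAA and by 32.8- to 52-fold in PA + DMSO libraries. On the TPM scale, dropping PA + DMSO replicate 3 made the difference -0.10, and dropping PA + DMSO replicate 2 made it -0.54.

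Among the other genes of ketone body chemistry, the main change was in a cytosolic enzyme. Of 13 tested genes in that list, which holds 4 of the 5 members, 2 were higher (BDH2 and OXCT1) and 1 lower, with a median log2 fold change of 0.02. Both shares are below the 25.4% and 25.8% of all tested genes. The 1 that fell was AACS, acetoacetyl-CoA synthetase, which activates acetoacetate in the cytosol for lipid synthesis. AACS had 31.4, 32.0 and 29.5 CPM in PA + 3-IAA replicates 1 to 3, against 126, 128 and 85.9 CPM in PA + DMSO replicates 1 to 3. It fell 3.65-fold (log2 fold change -1.87, SE 0.15, edgeR adjusted p = 0.000143), and PA + DMSO replicate 3 lay between the other PA + DMSO libraries and the PA + 3-IAA group. Without that library the log2 fold change of AACS was -2.03. ACAT2, the cytosolic thiolase that feeds sterol synthesis, had 192, 187 and 204 CPM in PA + 3-IAA, against 72.2, 79.9 and 151 CPM in PA + DMSO. Its log2 fold change of 0.94 (SE 0.31) missed the threshold (edgeR adjusted p = 0.0557) and was 1.36 without PA + DMSO replicate 3 (edgeR adjusted p = 5.72e-19). ACAT2 was also called higher by DESeq2 (adjusted p = 0.0206), by limma voom and by limma on log2 TPM. The edgeR test called it with the replicate number as a block (adjusted p = 0.021), with library total scaling and with the strict filter. It did not call ACAT2 with RLE scaling (adjusted p = 0.0518) or without a filter (adjusted p = 0.122). Leaving out any single library other than PA + DMSO replicate 3 also gave no call (edgeR adjusted p between 0.103 and 0.144). In the reported fit 3963 of 15576 tested genes were higher and 4015 lower. Without PA + DMSO replicate 3, 4918 of 15937 were higher and 4726 lower. In that second fit 5 genes of the list were higher and 2 lower. The added ones were ACAT2, the acetyl-CoA synthetase ACSS2 (0.93), HMGCS1 of cytosolic sterol synthesis (0.47) and, among those lower, ACSS3 (-0.16), named after their values were seen. Under 4 other settings (DESeq2, the replicate number as a block, and limma on log2 TPM with either pseudocount) 4 were higher.

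**Figure D3:**
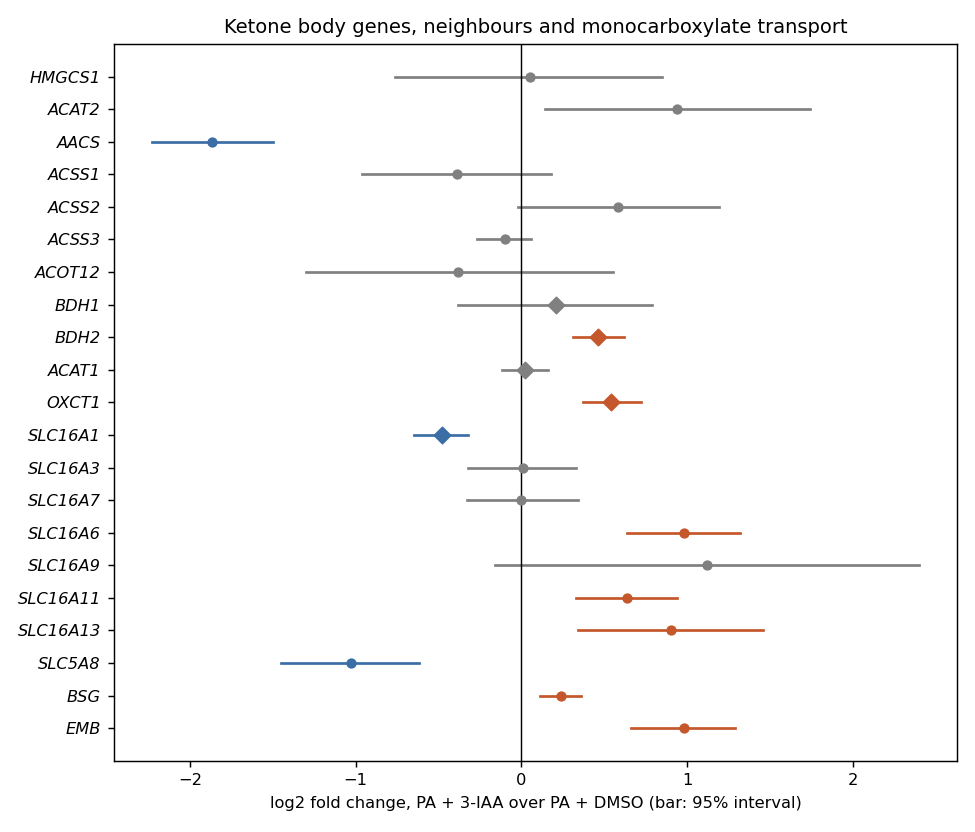
Log2 fold change, PA + 3-IAA over PA + DMSO, with its 95% interval, for genes of ketone body chemistry and of monocarboxylate transport; diamonds are the 5 members (BDH1, BDH2, ACAT1, OXCT1 and SLC16A1), orange is called higher, blue called lower and grey not called. SLC16A1 (-0.48), SLC5A8 (-1.03) and AACS (-1.87) lie left of 0, while SLC16A6, EMB, SLC16A13, SLC16A11, OXCT1, BDH2 and BSG lie right of it.

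Among genes of monocarboxylate transport more were called higher than lower, while SLC16A3 and SLC16A7, the proton-coupled relatives of SLC16A1, were not called. Of 10 tested genes of monocarboxylate transport 5 were higher and 2 (SLC16A1 and SLC5A8) lower, with a median log2 fold change of 0.44, against 25.4% and 25.8% of all tested genes. SLC16A6, whose zebrafish homologue exports 3-hydroxybutyrate from the liver, had 19.0, 19.8 and 17.5 CPM in PA + 3-IAA replicates 1 to 3, against 7.60, 8.83 and 12 CPM in PA + DMSO replicates 1 to 3. It rose 1.97-fold (log2 0.98, SE 0.15, edgeR adjusted p = 0.00079), with groups that did not overlap, and its log2 fold change was 1.20 without PA + DMSO replicate 3.

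EMB (embigin) and BSG (basigin), membrane glycoproteins that escort monocarboxylate transporters to the cell surface, were both higher. EMB had 17.1, 17.2 and 18 CPM in PA + 3-IAA replicates 1 to 3, against 7.55, 7.83 and 11.1 CPM in PA + DMSO replicates 1 to 3, a 1.97-fold rise (edgeR adjusted p = 0.000436; log2 0.98, and 1.18 without PA + DMSO replicate 3). BSG averaged 274 ± 3.17 CPM in PA + 3-IAA and 232 ± 8.76 CPM in PA + DMSO cells (SD, n = 3 each), a 1.18-fold rise (edgeR adjusted p = 0.00581). SLC16A11 and SLC16A13, less studied members of the SLC16 family, rose 1.55-fold and 1.86-fold. SLC16A13 lost its call without PA + 3-IAA replicate 1 (edgeR adjusted p = 0.0521) or PA + DMSO replicate 1 (edgeR adjusted p = 0.0511), which left 4 genes of the list higher. SLC5A8, a sodium-coupled monocarboxylate transporter, fell 2.05-fold on 43 to 104 counts per library (log2 -1.03, SE 0.19, edgeR adjusted p = 0.00145). SLC16A9 had a log2 fold change of 1.12 (edgeR adjusted p = 0.128). It held only 10, 13 and 21 counts in PA + 3-IAA libraries, against 5, 1 and 11 in PA + DMSO libraries. Without PA + DMSO replicate 3, which held the 11 counts, SLC16A9 was called, which made 6 genes of the list higher. That fit called 4918 of all 15937 genes it tested higher.

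SLC16A3 (MCT4) and SLC16A7 (MCT2), the proton-coupled relatives of SLC16A1, did not pass the test. SLC16A3 averaged 10.2 ± 1.07 CPM in PA + 3-IAA and 10.1 ± 1.80 CPM in PA + DMSO cells, with a 95% interval of the log2 fold change between -0.32 and 0.33. SLC16A7 averaged 4.03 ± 0.468 CPM in PA + 3-IAA and 4.03 ± 0.350 CPM in PA + DMSO cells, with an interval between -0.33 and 0.34 (SD, n = 3 each). SLC16A8 was listed at 0 in all 6 libraries and SLC5A12 was under the filter. SLC16A1 made up 84.4%, 83.8% and 84.7% of the summed TPM of SLC16A1, SLC16A3, SLC16A7 and SLC16A8 in PA + 3-IAA replicates 1 to 3, against 90.4%, 89.3% and 86.1% in PA + DMSO replicates 1 to 3. The groups did not overlap, and the difference of -4.32 percentage points had p = 0.1 in an exact two-sided permutation test over libraries, the smallest that 3 against 3 can give. With counts over the deposited length it was -2.87 percentage points. SLC16A1 stayed the main transcript of these 4 transporters in both groups.

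Genes upstream of ketone body synthesis were described by the same counts. Of 17 tested genes that supply acetyl-CoA from fatty acids 13 were higher and 2 lower, with a median log2 fold change of 0.33, against 25.4% and 25.8% of all tested genes, while ACAT1, the next enzyme, had 0.02. DECR1, which prepares unsaturated fatty acids for oxidation, rose 2.04-fold, and ACADL and ACADM, acyl-CoA dehydrogenases for long and medium chains, rose 1.43-fold and 1.68-fold. CPT1A, the entry gate for long-chain acyl groups into mitochondria, fell 1.37-fold and its relative CPT1B 1.69-fold. CPT1B lost its call, which left CPT1A alone on the lower side, when either PA + 3-IAA replicate 2 or PA + 3-IAA replicate 3 was dropped.

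Branched-chain amino acids are a further source, since leucine yields acetoacetate and isoleucine yields acetyl-CoA through ACAT1. Of 18 tested genes of their breakdown 6 were higher and 6 lower, near the 25.4% and 25.8% of all tested genes, with a median log2 fold change of 0.01. Without PA + DMSO replicate 3, 8 were lower, in a fit that called 4726 of all 15937 tested genes lower. The mitochondrial transaminase BCAT2 fell 12-fold, to 2.86 ± 1.51 CPM in PA + 3-IAA, against 34.3 ± 7.69 CPM in PA + DMSO cells (SD, n = 3 each). On the TPM scale the difference was smaller, at 4.66 ± 2.82 TPM for BCAT2 in PA + 3-IAA and 24.1 ± 5.58 TPM in PA + DMSO cells. The cytosolic transaminase BCAT1 fell 2.27-fold. HIBCH, which acts in valine breakdown, rose 1.96-fold, and IVD, the dehydrogenase of the leucine pathway, rose 1.44-fold.

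Among 14 tested regulators of ketogenesis 5 were higher and 6 lower, against 25.4% and 25.8% of all tested genes, with a median log2 fold change of 0.01. The coactivator PPARGC1A fell 3.53-fold, the hormone FGF21 9.76-fold and the corepressor NCOR1 1.39-fold. The mitochondrial deacetylase SIRT3 rose 2.71-fold, and the nuclear receptor PPARA, which drives fatty acid oxidation genes in rodents, was 1.18-fold higher (edgeR adjusted p = 0.0241). RXRA, its partner, RPTOR of the mTOR complex and ACACB, which makes the inhibitor of CPT1A, were also higher, at 1.24-, 1.71- and 1.30-fold. MTOR itself was 1.40-fold lower (edgeR adjusted p = 0.000772), so these 2 genes of the mTOR complex moved in opposite directions. FOXA2 was 2.61-fold lower, and GCGR was also lower (log2 fold change -0.67). PPARA lost its call without PA + 3-IAA replicate 1 or 3 or PA + DMSO replicate 2 and in limma on log2 TPM, and RXRA without PA + 3-IAA replicate 2 or 3 or PA + DMSO replicate 1 or 2. When PA + 3-IAA replicate 3 or PA + DMSO replicate 2 was dropped, 3 regulators were called higher, and without PA + DMSO replicate 3 there were 7. Over all genes these fits called 3101, 2986 and 4918 higher, in that order.

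The genes whose pattern was most like each member's were found by the root mean square difference of mean-centred log2 CPM over the 6 libraries, among 10081 named genes with a mean of at least 5 CPM. For OXCT1 these were IVD (0.013), FAM210B (0.014) and ANXA6 (0.018), against a median of 0.312 over all genes compared. For SLC16A1 they included DISP1 (0.017) and FNDC3A (0.020), and for BDH2 they were BRWD1 (0.020), ITPK1 (0.023) and TNS3 (0.024). AIDA (0.019), PRUNE1 (0.020) and ALKBH4 (0.020) were nearest to ACAT1. BDH1 had no neighbour as close: MRPS26 (0.101), TEK (0.116) and RNF187 (0.123) were nearest. BDH1 averaged 1.70 CPM in PA + 3-IAA and 1.45 CPM in PA + DMSO cells, below the 5 CPM minimum of the genes compared. Its larger distances thus cannot be told apart from counting error.

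Markers of hepatocytes, endothelial cells and macrophages moved with the groups. The called counts below stand beside 25.4% of all tested genes called higher and 25.8% called lower. Hepatocyte markers such as ALB and TF were abundant and summed to 20353 to 22511 TPM in PA + 3-IAA libraries, against 14623 to 16202 TPM in PA + DMSO libraries, with 8 of 10 called higher and none lower. Endothelial markers summed to 51.5 to 59.4 TPM in PA + 3-IAA, against 20.0 to 36.2 TPM in PA + DMSO libraries (5 of 8 higher, none lower). Of these endothelial markers 7 were higher without PA + DMSO replicate 3, and 4 without any other single library. Over all genes 4918 were called higher without PA + DMSO replicate 3, and 2986 to 3149 without any other single library. Macrophage markers summed to 112 to 119 TPM in PA + 3-IAA, against 54.4 to 76.0 TPM in PA + DMSO libraries (5 of 8 higher, none lower, and between 2 and 3 higher without any single library other than PA + DMSO replicate 3). The largest part of the macrophage difference was in CD14, with 46.7 ± 0.996 TPM in PA + 3-IAA and 14.1 ± 9.16 TPM in PA + DMSO cells. MARCO, C1QA and CD163 did not pass the test. Stellate cell and fibroblast markers summed to 2256 to 2346 TPM in PA + 3-IAA, against 1299 to 1788 TPM in PA + DMSO libraries (2 of 7 tested higher and 2 lower, median log2 fold change -0.05). Most of that difference was in ACTA2, with 1376 ± 24.6 TPM in PA + 3-IAA and 590 ± 200 TPM in PA + DMSO cells. DES was also higher, DCN and PDGFRB were lower, and the collagens COL1A1, COL1A2 and COL3A1 did not pass the test. Cholangiocyte markers summed to 1332 to 1390 TPM in PA + 3-IAA, against 673 to 858 TPM in PA + DMSO libraries (2 of 6 higher and 1 lower, median log2 fold change -0.02). SPP1 made up most of that sum, with 1206 ± 32.7 TPM in PA + 3-IAA and 625 ± 91.9 TPM in PA + DMSO cells. KRT7 was also higher, at 87.8 ± 9.19 TPM in PA + 3-IAA and 50.3 ± 6.29 TPM in PA + DMSO cells. SOX9 was 1.98-fold lower with 3-IAA, and KRT19, EPCAM and CFTR did not pass the test. These single markers were named after their values were seen. Lymphocyte markers were near 0, at 4.69 to 6.53 TPM in PA + 3-IAA and 4.91 to 5.91 TPM in PA + DMSO libraries, with MS4A1 at 0 in all 6. The part of non-hepatocyte cells in the OXCT1, BDH2 and SLC16A1 values was not tested.

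In RefSeq's cattle gene table a protein-coding locus (LOC132346095) overlaps BDH1 and a long non-coding RNA locus (LOC107132296) overlaps SLC16A1. Whether counting used strand is not given in the sources used here, so reads of these overlapping genes may not be separable. ACAT1, BDH2 and OXCT1 overlapped no other locus in that table.

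**Figure D4:**
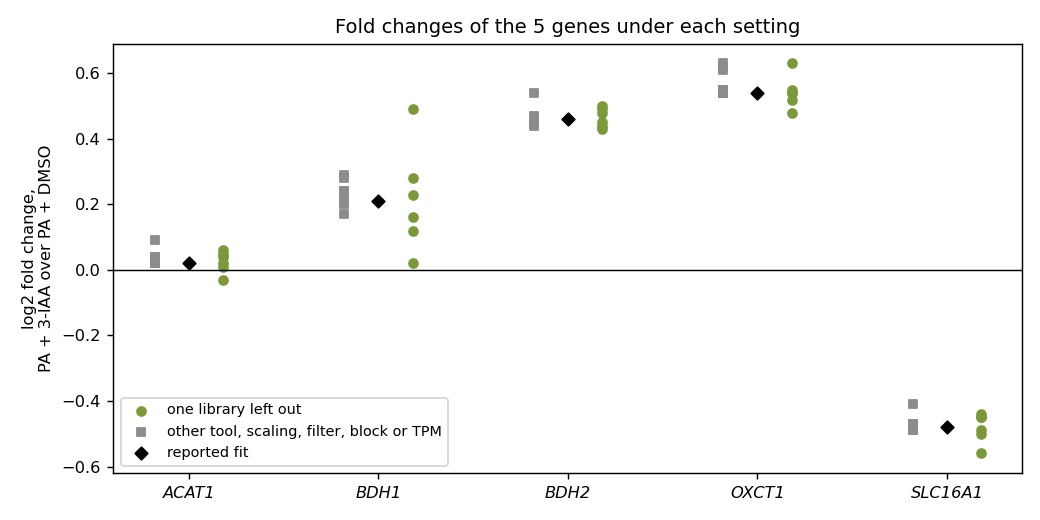
Log2 fold change, PA + 3-IAA over PA + DMSO, of the 5 genes in the reported fit (black diamonds), under other tools, scalings, filters, the replicate block or TPM (grey squares) and with 1 library left out (green circles). BDH2, OXCT1 and SLC16A1 stay between 0.43 and 0.54, 0.48 and 0.63, and -0.56 and -0.41, while BDH1 ranges between 0.02 and 0.49 and ACAT1 between -0.03 and 0.09.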

How the data were processed

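Polyadenylated RNA was sequenced on an Illumina NovaSeq X Plus, per the labels' protocols. Tools listed in the submitters' processing notes, with no roles given, were HISAT2 2.2.1, cutadapt 1.9, DESeq2 and RSEM. The authors deposited expected counts (estimated reads per gene) and TPM per library, their group means, and a comparison with a base mean signal (normalised count), log2 fold change, its standard error, a Wald score, and p-values. Expected counts were rounded and tested with edgeR 4.0.16 (R 4.3.3; TMM scaling, filterByExpr, robust quasi-likelihood, two-sided) over all 15576 genes passing the filter. The SE is the log2 fold change over the square root of F. Alternatives were DESeq2 1.42.0, limma 3.58.1 (voom, and log2 TPM with pseudocounts of 1 and 0.1), other scalings and filters, a replicate block and leaving out each library. The fitting code was tested on simulated data. The members, lists and tests were chosen with earlier results of these data known. Named genes were the 5 members, all genes of lists of at most 12, otherwise the 4 with the smallest p and those against the majority, and the 3 most alike in pattern with a mean of at least 5 CPM. In the list of regulators all called genes were named. OXCT2, ECHS1, ETFB and HCAR2 were not analysed here, nor were 2 emptied lines, and some genes counted in the lists are not reported here by name.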

Additional observations from a re-analysis of the deposited data

How the results depend on the processing

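BDH2, OXCT1 and SLC16A1 kept their direction and their call under all 15 alternatives, with edgeR, DESeq2 or limma adjusted p-values of at most 0.00519, 0.00441 and 0.00701. ACAT1 stayed uncalled under all 15 and BDH1 under the 14 that tested it (the strict filter removed BDH1). With each library left out in turn, the log2 fold change lay between 0.43 and 0.50 for BDH2, 0.48 and 0.63 for OXCT1, -0.56 and -0.44 for SLC16A1, 0.02 and 0.49 for BDH1 and -0.03 and 0.06 for ACAT1, whose sign was negative without PA + 3-IAA replicate 3. Scaling by library total put the median log2 fold change of all genes at 0.075, and gave -0.41 for SLC16A1 and 0.54 for BDH2. Over all genes, 2986 to 4918 were called higher and 3285 to 4726 lower with 1 library left out. A fit with a replicate block gave log2 fold changes of 0.46 for BDH2, 0.55 for OXCT1, -0.48 for SLC16A1, 0.24 for BDH1 and 0.02 for ACAT1, and 3722 genes were higher and 3767 lower. Same-numbered libraries had correlations of their deviations of 0.018, 0.029 and 0.022, each the highest for its library. All were near 0, with the other pairs between -0.038 and 0.009, so they do not show whether libraries were paired. The block changed no call of the 5 genes. Depth limits BDH1, and the number of libraries limits the TPM ratios.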

Other observations

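In RefSeq's cattle gene table BDH2 lies next to SLC9B2, which encodes a sodium-proton exchanger. SLC9B2 had a log2 fold change of -2.66 (edgeR adjusted p = 0.000153), whereas BDH2 had 0.46 and its other neighbour, CENPE, 0.15 (edgeR adjusted p = 0.291). ACAT1 lies next to NPAT, a histone gene regulator, which had a log2 fold change of 0.31 (edgeR adjusted p = 0.0416) beside 0.02 for ACAT1. RIMOC1, next to OXCT1, had 0.11 (edgeR adjusted p = 0.291). The neighbours were named after their values were seen.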
